A study of Homo sapiens with 13 samples.

Results

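Small nucleolar RNA (snoRNA) genes were examined in 13 monoclonal lines of 293T, a human cell line derived from embryonic kidney. The genes were all rows of the count table with the GENCODE release 29 gene type snoRNA and at least 130 reads summed over the 13 lines. This limit kept 84 of 825 snoRNA rows, of which 370 had any read, out of 56238 rows in all. The 84 are 34 H/ACA genes (SNORA), 45 C/D genes (SNORD) and 5 others, namely SCARNA12, SCARNA10 and 3 known only by an identifier. The genes were thus chosen by their summed raw counts, the values behind all levels given here, so their abundance is a description. The genes just inside the limit were SNORD104 with 130 reads, SCARNA10 with 133 and SNORA11F with 135, and those just outside were SNORD59A and SNORA53 with 129 each and SNORD43 with 125.

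The lines differ in genotype at rs199643834, a variant of FLCN, the folliculin gene. Both HOM lines are labelled ALT/ALT/ALT, the 7 HET lines ALT/REF/REF and the 4 WT lines REF/REF/REF. Lines of every genotype went through the same procedure: transfection of a Cas9 and guide RNA plasmid and a single-stranded DNA repair template, brief puromycin selection, and growth from 1 sorted cell. Each library is 1 clone, so genotype is compared over clones, and a HOM value rests on n = 2. The copies of FLCN in each clone were not measured here, and FLCN had 30.2 ± 9.20 CPM in HOM, 36.4 ± 13.4 in HET and 37.2 ± 11.65 in WT clones (mean ± SD). CPM is the usual scaling of a count by library size, here the TMM-scaled size. Libraries held 44504068 to 54377639 counts. Of 6 markers of 293T cells found in the table, all 6 exceeded 1 CPM in some clone, with summed levels of 476 to 754 CPM in HOM, 572 to 712 in HET and 271 to 813 in WT clones. VIM, at 207 to 739 CPM over the clones, made up most of these sums. NEFM (0.0724 to 2.65 CPM), PAX2 (0.371 to 2.56) and INA (0.145 to 40.6) were below 1 CPM in some clones. Markers of other cell types summed to 9.92 to 10.8 CPM in HOM, 4.44 to 31.7 in HET and 6.62 to 12.5 in WT clones; 3 of the 7 found exceeded 1 CPM in any clone, with COL1A1 the highest at 29.5 CPM.

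snoRNAs are short nucleolar RNAs that guide the chemical modification of ribosomal RNA. H/ACA snoRNAs direct pseudouridylation with the proteins dyskerin, NHP2, NOP10 and GAR1, and C/D snoRNAs direct methylation of the ribose with fibrillarin, NOP56, NOP58 and SNU13. A few, such as U3, U14 and U17, act in the cutting of the ribosomal RNA precursor, U14 beside its role as a guide. Most human snoRNAs are released from introns of host genes and end without a poly(A) tail. The libraries were made with a kit that selects polyadenylated RNA, so the counts do not measure the mature pool, and reads from mature snoRNA, from tailed intermediates and from unspliced or exonic host RNA cannot be told apart. In GENCODE release 29, 46 of the 84 genes overlap an exon of another gene on the same strand.

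The RNAs on which the values below turn most often are printed here from the GENCODE release 29 transcripts, 5′ to 3′ as DNA letters. In the C/D genes the capitals mark the box C core TGATGA in the first part of the RNA, where it is present, and the box D motif CTGA within the last 16 bases. In the H/ACA genes they mark ACA within the last 8 bases. SNORA70, SNORA73B and SNORD17 are shown because they kept an unadjusted p under 0.05 for HOM against WT with HOM 1 left out and had one for HET against WT as well.
SNORA70: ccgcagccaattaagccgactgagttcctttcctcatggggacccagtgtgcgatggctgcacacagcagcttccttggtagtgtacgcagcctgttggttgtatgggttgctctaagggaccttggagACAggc
SNORA73B: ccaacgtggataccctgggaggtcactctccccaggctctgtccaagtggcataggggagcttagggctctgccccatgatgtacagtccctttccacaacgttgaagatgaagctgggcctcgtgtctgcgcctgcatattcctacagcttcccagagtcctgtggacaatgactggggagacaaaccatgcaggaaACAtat
SNORD17: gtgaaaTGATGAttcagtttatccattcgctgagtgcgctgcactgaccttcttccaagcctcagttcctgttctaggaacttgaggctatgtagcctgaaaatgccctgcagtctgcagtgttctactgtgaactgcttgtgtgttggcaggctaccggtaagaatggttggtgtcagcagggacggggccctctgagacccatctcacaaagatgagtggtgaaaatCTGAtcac
The next set comes from introns of 1 gene, EIF4A2, and SNORA63 and SNORA63B are 71.2% identical.
SNORD2: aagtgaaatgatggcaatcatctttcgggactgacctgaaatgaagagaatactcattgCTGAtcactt
SNORA4: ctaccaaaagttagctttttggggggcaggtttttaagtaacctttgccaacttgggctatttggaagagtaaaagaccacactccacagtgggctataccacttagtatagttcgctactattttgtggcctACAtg
SNORA63: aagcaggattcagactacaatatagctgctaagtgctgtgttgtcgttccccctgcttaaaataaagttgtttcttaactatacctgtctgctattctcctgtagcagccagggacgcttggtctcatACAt
SNORA63B: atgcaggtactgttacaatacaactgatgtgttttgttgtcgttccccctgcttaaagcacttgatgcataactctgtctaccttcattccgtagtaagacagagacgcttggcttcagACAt
SNORD20 had the largest ratio of HOM 1 to the other clones, and SNORD18B was the C/D gene of lowest p in HOM against WT.
SNORD20: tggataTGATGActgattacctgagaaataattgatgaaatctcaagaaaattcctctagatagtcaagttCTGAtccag
SNORD18B: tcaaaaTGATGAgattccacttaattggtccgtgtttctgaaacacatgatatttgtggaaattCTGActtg
SNORD83A and SNORD83B lie in introns of RPL3, and SNORD14A and SNORD14B, copies of U14, in introns of RPS13. The first pair is 78.9% identical and the second 86.8%.
SNORD83A: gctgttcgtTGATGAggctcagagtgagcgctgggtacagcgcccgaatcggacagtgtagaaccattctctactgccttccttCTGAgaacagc
SNORD83B: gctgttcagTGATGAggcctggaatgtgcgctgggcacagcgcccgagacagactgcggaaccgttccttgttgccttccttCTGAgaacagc
SNORD14A: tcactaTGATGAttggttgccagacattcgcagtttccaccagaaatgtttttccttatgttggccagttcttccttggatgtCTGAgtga
SNORD14B: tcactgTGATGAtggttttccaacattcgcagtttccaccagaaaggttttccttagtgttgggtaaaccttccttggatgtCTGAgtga
Of the 45 C/D genes, 31 hold TGATGA in their first part (68.9%, against 70.6% of 269 other C/D genes) and 40 hold CTGA within the last 16 bases (88.9%, against 88.1%). Of the 34 H/ACA genes, 31 hold ACA within the last 8 bases (91.2%, against 80.8% of 182 others). Only the strand of the RNA was searched. A stretch of 40 bases is shared with another snoRNA gene in 13 of the 84, including SNORA70, SNORA73B, SNORD18B, SNORD3A, SNORA1, SNORA8 and SNORA27, and the counts of these are uncertain where reads could be split between copies.

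One clone, HOM 1, stood apart from all others. The 84 genes summed to 195 CPM in HOM 1 and 59.8 CPM in HOM 2, to 55.1 ± 11.5 CPM in HET (SD, n = 7) and 48.5 ± 8.12 CPM in WT clones (n = 4). HET clones ran from 39.3 to 68.8 CPM and WT clones from 40.7 to 59.9 CPM, so HOM 2 lay inside the HET range and just below the highest WT clone, while HOM 1 stood 2.83-fold above HET 6, the highest of the other 12. As a share of all counts the genes took 0.0192% in HOM 1 (95% exact binomial interval 0.0188 to 0.0196%, for counting error only, since reads without molecular identifiers are not independent molecules) and 0.00377 to 0.00764% in the other clones.

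Both classes were highest in HOM 1. The H/ACA genes summed to 87.1 CPM in HOM 1 and 26.7 in HOM 2, 24.3 ± 5.34 in HET (17.3 to 31.0) and 19.8 ± 3.08 in WT clones (16.8 to 24.1). The C/D genes summed to 101 CPM in HOM 1 and 29.9 in HOM 2, 27.8 ± 5.78 in HET (20.1 to 35.3) and 25.9 ± 4.13 in WT clones (22.1 to 31.8). In each class HOM 1 was above every other clone and HOM 2 was within the HET range. Relative to each gene's median over the 13 clones, the median H/ACA gene stood at 1.58 log2 units in HOM 1 and 0.02 in HOM 2, between -0.35 (HET 4) and 0.22 (HET 6) in HET and between -0.41 (WT 3) and 0.00 (WT 1) in WT clones. The median C/D gene stood at 1.79 in HOM 1 and 0.00 in HOM 2, between -0.40 (HET 4) and 0.27 (HET 3) in HET and between -0.23 (WT 3) and 0.13 (WT 1) in WT clones.

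**Figure D1:**
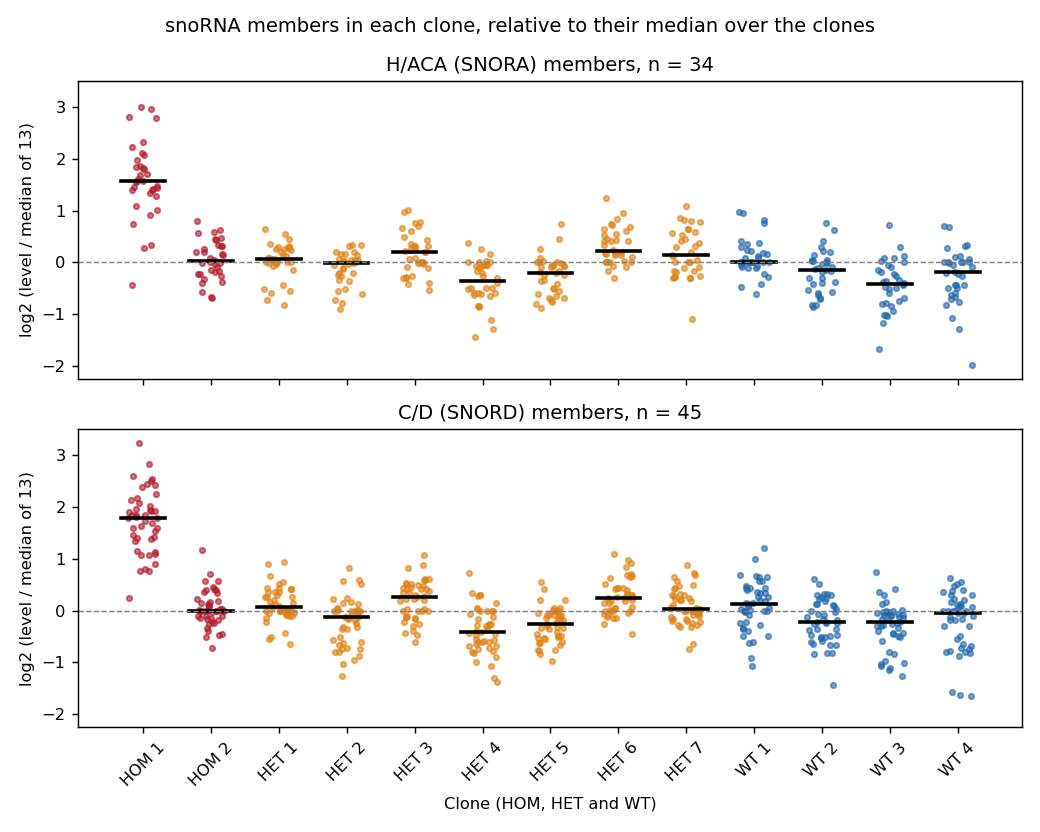
Log2 level of each snoRNA gene relative to its median over the 13 clones (vertical axis; 0.1 CPM was added to both) in every clone (horizontal axis; HOM red, HET orange, WT blue), for 34 H/ACA genes above and 45 C/D genes below; points are genes and bars their median. The medians in HOM 1 are 1.58 and 1.79, and those of the other clones lie between -0.41 and 0.27.

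Taken gene by gene, HOM 1 was the highest of the 13 clones in 75 of the 84, against 10.1% of the 20320 genes tested. That count was 30 of 34 for H/ACA and 42 of 45 for C/D genes. The level in HOM 1 was more than 2 times the median of the other 12 clones in 74 of the 84, against 7.97% of all genes tested. The median ratio was 3.63 for H/ACA genes (0.561 for SNORA31B to 9.25 for SNORA63B) and 4.11 for C/D genes (1.33 for SNORD104 to 17.8 for SNORD20). Reads of HOM 1 helped 15 genes over the limit, so these are set apart. They are SNORA1, SNORA55, SNORA66, SNORA69, SNORD6, SNORD11, SNORD12B, SNORD14E, SNORD20, SNORD3B-2, SNORD62B, SNORD69, SNORD104, SCARNA10 and ENSG00000238390, and their values in HOM 1 are in part fixed by the choice. Of the 69 that average at least 10 reads in the other 12 clones, HOM 1 was highest in 61, with a median ratio of 3.34 for 30 H/ACA and 3.75 for 36 C/D genes. The 741 snoRNA rows under the limit summed to a level 3.56-fold above the same median. No test was made of HOM 1 against the other 12 clones together, since a single clone stands on 1 side. In these bulk libraries, a change in the number of cells carrying an RNA and a change in its amount per cell cannot be told apart.

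The exceptions were 9 genes. SNORD17 was highest in HOM 2, SNORA65, SNORD99 and SNORD104 in HET 6, SNORA26 and SNORA31B in HET 7 and SNORA11F in WT 1. The identifiers ENSG00000238832 and ENSG00000202343 were highest in HET 2 and WT 4. SNORA31B, in TPT1, had 0.113 CPM in HOM 1 and 0.246 in HOM 2, a median of 0.213 in HET (0.0604 to 0.517), and 0.459, 0.187, 0.154 and 0.0819 CPM in WT clones. Together with ENSG00000202343 (ratio 0.709) it was the only member below the median of the other clones in HOM 1, and its 5 reads there are too few to place it.

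Other RNA groups that carry no long tail were above the median of the other clones in HOM 1, by less. Relative to the median of the other 12 clones, HOM 1 stood at 1.95 for the summed scaRNA genes, guides of the Cajal body, at 1.94 for genes of type misc_RNA, at 1.77 for snRNA genes and at 1.79 and 1.78 for mitochondrial ribosomal and transfer RNA genes. Replication-dependent histone genes, whose messengers end in a stem-loop, stood at 1.23. Over the highest other clone, HOM 1 stood at only 1.20 for scaRNA genes, which had 64 reads in HOM 1. The same ratio was 1.34 for snRNA, 1.43 for misc_RNA and 1.35 for mitochondrial ribosomal RNA genes. RMRP, the RNA of RNase MRP, had 1.02 CPM in HOM 1 and a median of 0.600 CPM in the other clones. TERC, the telomerase RNA, had 61 reads in all, with 0.158 CPM in HOM 1 and up to 0.251 CPM in another clone. HOM 1 was not the highest clone in the transfer RNA genes, where WT 3 had 265 CPM, nor in the histone genes, where HOM 1 had 105 CPM and was below HET 1, HET 6, WT 2, WT 3 and WT 4. Whether RNA without a tail was carried over to a different degree in the HOM 1 library was not tested.

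**Figure D2:**
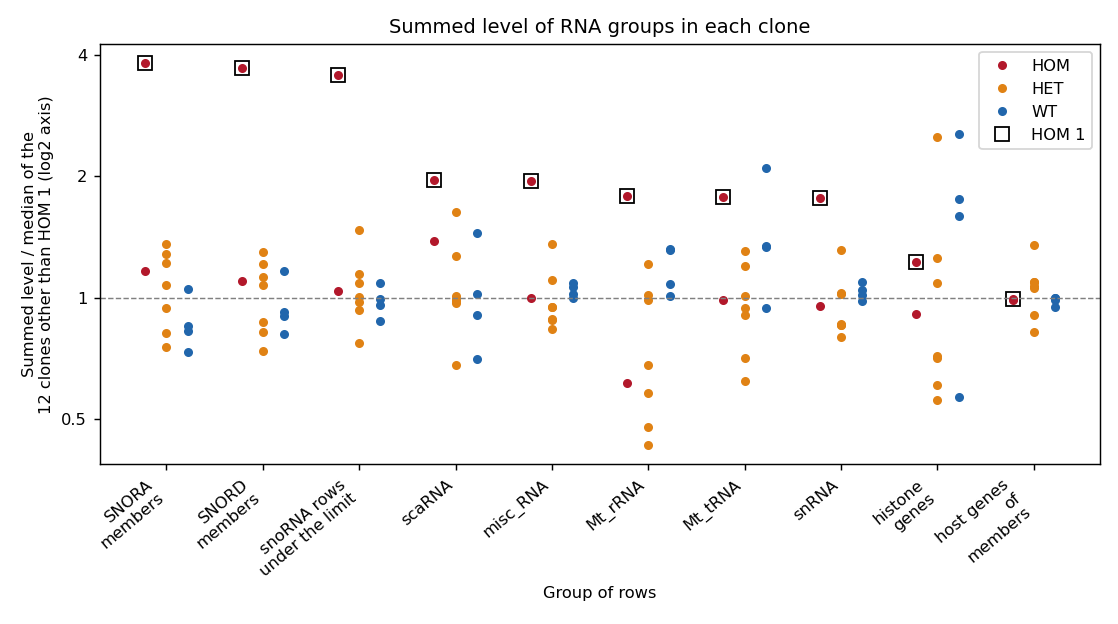
Summed level of 10 groups of rows in each clone, divided by the median of the 12 clones other than HOM 1 (vertical axis, log2 scale), with points for clones by genotype and a square around HOM 1. HOM 1 stands at 3.81 and 3.71 for the H/ACA and C/D genes and at 3.56 for the snoRNA rows under the limit. It stands between 1.77 and 1.95 for scaRNA, misc_RNA, snRNA and the mitochondrial ribosomal and transfer RNAs. Histone genes stand at 1.23 and the host genes at 0.993.

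The host genes were near the other clones in HOM 1. Of the 84 genes, 81 lie in one of 56 annotated hosts on the same strand, and 32 of these lie in 23 ribosomal protein genes. The hosts summed to 40276 CPM in HOM 1 and 40015 in HOM 2, 42819 ± 6727 in HET and 39937 ± 934 in WT clones, and their median ratio of HOM 1 to the other 12 clones was 1.02 (0.611 for TPT1 to 2.13 for TAF1D). In 78 of 81 cases the snoRNA gene had a larger ratio than its host, and the median of ratio over ratio was 3.35. Members in ribosomal protein genes had a median ratio of 3.75 and the other hosted members 3.96, while the hosts themselves had 0.941 and 1.10. Ratios of members that overlap an exon and of those that do not had medians of 3.75 and 3.98. The classes differed in direction, with 3.84 and 2.93 for H/ACA genes and 3.75 and 5.11 for C/D genes. All of these member values include genes that reads of HOM 1 helped over the limit. Over the 69 other genes, hosted or not, the median ratio of HOM 1 to the other 12 clones was 3.49.

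Ratios in HOM 1 were close among the members of some hosts and not of others. EIF4A2, a translation initiation helicase of chromosome 3, holds SNORD2, SNORA81, SNORA4, SNORA63 and SNORA63B. SNORD2 had 9.85 CPM in HOM 1 and 1.09 in HOM 2, a median of 1.15 in HET (0.804 to 1.77), and 1.66, 1.64, 1.68 and 1.29 CPM in WT clones. HOM 1 was apart from all other clones, and HOM 2 was among the HET clones and below the WT clones.

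SNORA81 had 8.07 CPM in HOM 1 and 0.637 in HOM 2, a median of 0.876 in HET (0.592 to 1.37), and 1.35, 1.21, 1.20 and 1.09 CPM in WT clones. SNORA4 had 6.42 CPM in HOM 1 and 0.596 in HOM 2, a median of 0.704 in HET (0.562 to 0.917), and 0.655, 0.989, 0.907 and 0.717 CPM in WT clones. In both, HOM 2 was below every WT clone and HOM 1 far above all. The 5 EIF4A2 members had ratios of 7.67 to 9.25 in HOM 1. EIF4A2 itself had 382 CPM in HOM 1 and 261 in HOM 2, a median of 257 in HET (183 to 400) and of 217 in WT clones (169 to 276), so HOM 1 was inside the HET range for the host.

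TAF1D, a subunit of the selectivity factor of RNA polymerase I, holds SNORA8, SNORD5, SNORD6 and SNORA1 on chromosome 11. SNORA8 had 2.10 CPM in HOM 1 and 0.534 in HOM 2, a median of 0.491 in HET (0.282 to 0.845), and 0.371, 0.205, 0.212 and 0.123 CPM in WT clones. SNORD5 had 2.33 CPM in HOM 1 and 0.308 in HOM 2, a median of 0.317 in HET (0.141 to 0.531), and 0.328, 0.131, 0.0965 and 0.164 CPM in WT clones. In SNORA8 both HOM clones exceeded every WT clone, and in SNORD5 HOM 2 was under WT 1.

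SNORA1 had 1.15 CPM in HOM 1 and 0.246 in HOM 2, a median of 0.213 in HET (0.112 to 0.292), and 0.0874, 0.131, 0.0772 and 0.0410 CPM in WT clones. The 4 ratios in HOM 1 were 6.06 to 7.93, but SNORA1 and SNORD6 reached the limit only with the reads of HOM 1. TAF1D, the host with the largest ratio (2.13), had 175 CPM in HOM 1 and 87.5 in HOM 2, a median of 86.7 in HET (72.9 to 97.8) and of 61.05 in WT clones (50.1 to 103).

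In other hosts with several members the ratios were less even or smaller. RPL4 held SNORD18B and SNORD16 with 7.82 and 3.74, EEF1B2 held SNORD51 and SNORA41 with 6.45 and 2.97, RPL5 held SNORD21 and SNORA66 with 7.58 and 4.62, and the ZFAS1 members had 4.81 and 6.21. In GNL3, the gene of nucleostemin, the 4 members SNORD19, SNORD19B, SNORD19C and SNORD69 had ratios of 4.11 to 5.42 in HOM 1 and the host 1.64. In RPS12, SNORA33, SNORD100 and SNORD101 had 3.99 to 5.88 and the host 0.872. In SNHG17, a noncoding host, SNORA71A, SNORA71B and SNORA71C had 2.41 to 4.83 and the host 1.77. Over the 16 hosts with more than 1 member, which hold 41 members, the SD of the log2 ratio within a host was 0.35 and the SD over the same 41 members 0.54. SNORD20, in the nucleolin gene NCL, was alone at the top: it had 87 reads in HOM 1 and 4 in HOM 2, or 1.97 and 0.0821 CPM, a median of 0.118 CPM in HET (0.0806 to 0.225), and 0.240, 0.149, 0.0772 and 0.102 CPM in WT clones. Its host stood at 1.28. SNORD20, SNORA63, SNORA63B and the members of GNL3, RPL5, EEF1B2, RPS12 and SNHG17 other than SNORA33 were named after their values were seen. SNORD20, SNORA66, SNORD69 and the ZFAS1 member SNORD12B reached the limit only with the reads of HOM 1, and both SDs include such genes.

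**Figure D3:**
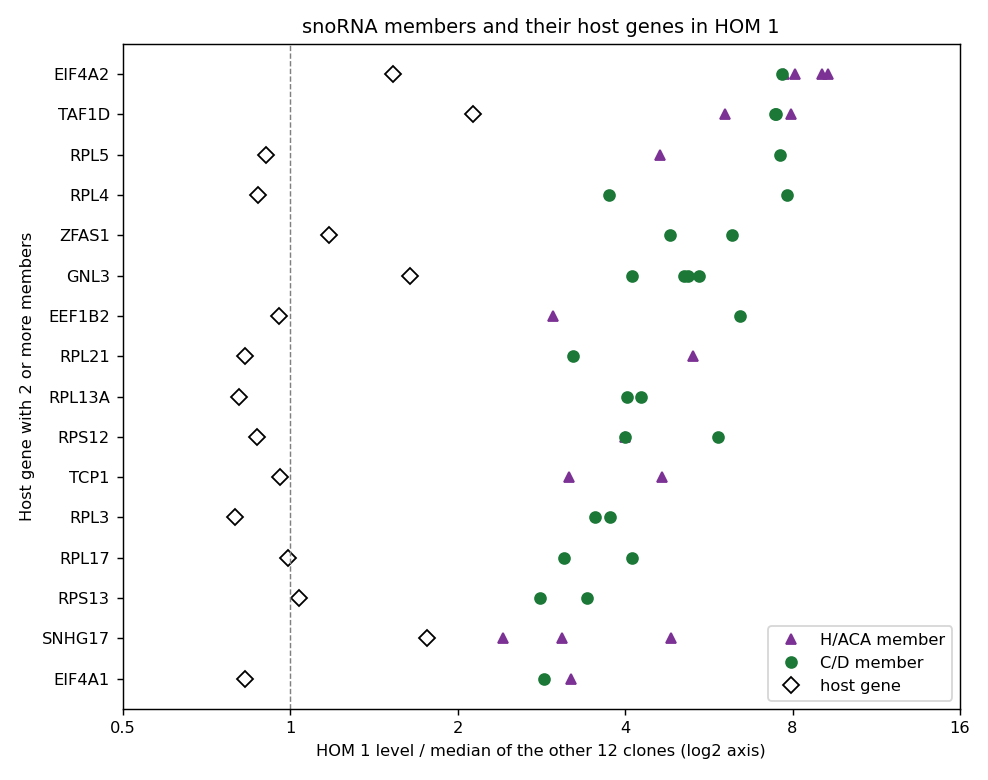
Level in HOM 1 divided by the median of the other 12 clones (horizontal axis, log2 scale) for the snoRNA genes in each of the 16 hosts with more than 1 member (vertical axis), with triangles for H/ACA genes, filled circles for C/D genes and open diamonds for the host. Every member lies to the right of its host, and the EIF4A2 members, at 7.67 to 9.25, and the TAF1D members, at 6.06 to 7.93, lie farthest right as groups. Some members, among them SNORA1 and SNORD6 in TAF1D, reached the limit only with the reads of HOM 1.

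Some members have no annotated host. SNORD3A, a gene of U3, which acts in the first cuts of the ribosomal RNA precursor, had 3.98 CPM in HOM 1 and 0.637 in HOM 2, a median of 0.686 in HET (0.483 to 1.28), and 0.240, 0.355, 0.618 and 0.532 CPM in WT clones. SNORD3B-2, a second U3 gene, had 57 reads in HOM 1 and 3 in HOM 2. The ratios in HOM 1 were 6.74 and 8.18, but SNORD3B-2 reached the limit only with the reads of HOM 1. Reads of U3 genes can be split between near-identical copies.

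Levels per length were highest for SNORD96A, in RACK1, with a median over the 13 clones of 38.7 CPM per kb, SNORA70 with 25.2, SNORD83B with 23.9 and SNORA64 with 22.5. SNORD96A had 5.40 CPM in HOM 1 and 3.06 in HOM 2, a median of 3.08 in HET (1.91 to 3.64), and 3.495, 1.88, 1.51 and 1.80 CPM in WT clones. SNORA64, in the ribosomal protein gene RPS2, had 7.46 CPM in HOM 1 and 3.33 in HOM 2, a median of 3.10 in HET (1.97 to 4.10), and 3.01, 2.71, 2.90 and 2.91 CPM in WT clones. Both HOM clones exceeded the WT clones in SNORA64, HOM 2 by little.

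In RPL3, SNORD83B had 8.31 CPM in HOM 1 and 2.20 in HOM 2, a median of 2.11 in HET (1.15 to 3.62), and 3.06, 2.65, 2.03 and 2.93 CPM in WT clones. Its neighbour SNORD83A had 4.70 CPM in HOM 1 and 1.05 in HOM 2, a median of 1.27 in HET (1.01 to 1.81), and 1.73, 1.72, 1.31 and 2.01 CPM in WT clones. HOM 2 was within the WT range for SNORD83B and below it for SNORD83A. The host RPL3 had 1851 CPM in HOM 1 and 2242 in HOM 2, a median of 2488 in HET and of 2254 in WT clones.

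The question the design poses is how RNA levels differ with the edited allele. It was addressed with edgeR's quasi-likelihood F test fitted to all 20320 genes that passed the filter on low counts, among them all 84 snoRNA genes, with Benjamini-Hochberg adjustment over all genes and two-sided tests. The comparisons of HOM and of HET with WT share the WT clones.

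Between HOM and WT clones, no snoRNA gene passed an adjusted p of 0.05, as for all genes (0% called). The log2 fold change was above 0 in 79 of 84, against 49% of all genes, with medians of 1.54 for H/ACA and 1.58 for C/D genes and -0.01 for all genes. An unadjusted p under 0.05 was found for 55 of 84, all higher in HOM, against 14.4% of all genes in either direction, 7.52% higher and 6.84% lower. In 31 of 84 both HOM clones were above all 4 WT clones (12.8% of all genes), 15 of them H/ACA, 15 C/D and 1 an unnamed gene, and in 0 were they below (12.8% of all genes). DESeq2 called 12 members, all higher, against 1.71% of all genes called and 0.719% called higher. The counts over 84 include the 15 genes that the reads of HOM 1 brought over the limit. Over the other 69 genes, 64 were above 0, 46 had an unadjusted p under 0.05, 25 had both HOM clones above the WT clones and 11 were called by DESeq2, with medians of 1.54 for H/ACA and 1.41 for C/D genes.

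The count of members rested on HOM 1. Without HOM 1 the medians were 0.21 for H/ACA and 0.14 for C/D genes, 52 of 84 members were above 0, and 4 had an unadjusted p under 0.05, all higher, against 7% of all genes in either direction and 3.74% higher. Without HOM 2 the medians were 2.14 and 2.17 and 12 members passed the adjusted threshold, against 0.13% of all genes, where the lone HOM 1 is assumed to vary like the other groups. Of these 12, SNORA1 and SNORD20 reached the limit only with the reads of HOM 1. Without WT 1, 7 members passed, against 1.22% of all genes. Gene by gene, HOM 1 was above every WT clone in 79 of 84, while HOM 2 was above all WT clones in 31, within their range in 41 and below it in 12.

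**Figure D4:**
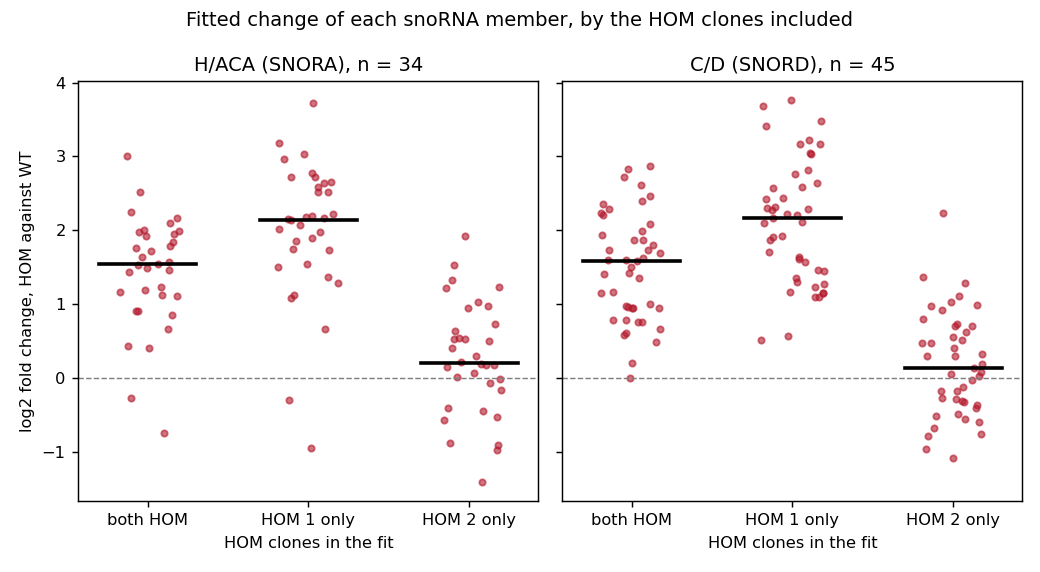
Fitted log2 fold change of HOM against WT (vertical axis) for each of 34 H/ACA (left) and 45 C/D genes (right), with both HOM clones, with HOM 1 alone and with HOM 2 alone in the fit (horizontal axis); points are genes and bars medians. The medians are 1.54 and 1.58 with both clones, 2.14 and 2.17 with HOM 1 and 0.21 and 0.14 with HOM 2.

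The 4 members with an unadjusted p under 0.05 in the absence of HOM 1 were SNORD17, SNORA73B, SNORA70 and SNORD18B, each with an edgeR adjusted p of 0.70 there. As a share of the members, 4 of 84 is near the 3.74% of all genes, so no more than their values is read from it. SNORA70, in RPL10 on the X chromosome, had 10.3 CPM in HOM 1 and 5.195 in HOM 2, a median of 3.53 in HET (2.14 to 5.60), and 2.77, 1.88, 1.85 and 2.48 CPM in WT clones. Both HOM clones were above every WT clone, and HOM 2 was inside the HET range. HOM exceeded WT by 1.79 log2 units, with a standard error of 0.36 and an adjusted p of 0.18 in edgeR and 0.0011 in DESeq2. The difference was 1.22 without HOM 1, and without WT 1 it passed (1.90, edgeR adjusted p of 0.041). Its host RPL10 had 1397 CPM in HOM 1 and 1315 in HOM 2, a median of 1566 in HET and of 837 in WT clones.

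SNORA73B, a gene of U17, which acts in the processing of 18S ribosomal RNA and lies in the Ran exchange factor gene RCC1, had 6.12 CPM in HOM 1 and 4.00 in HOM 2, a median of 2.39 in HET (1.57 to 4.05), and 1.92, 1.19, 0.637 and 0.491 CPM in WT clones. Both HOM clones were above all WT clones, and WT 1 alone among the WT clones was within the HET range. HOM exceeded WT by 2.25 log2 units (standard error 0.48) and HET exceeded WT by 1.39 (0.38), with edgeR adjusted p of 0.18 and 0.10 and DESeq2 adjusted p of 0.0034 and 0.0095. Without WT 1 they were 2.70 and 1.83, with edgeR adjusted p of 0.036 and 0.018. RCC1 had log2 fold changes of 0.67 in HOM and 0.69 in HET, with edgeR adjusted p of 0.39 and 0.19.

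SNORD17, in the sorting nexin gene SNX5, had 2.87 CPM in HOM 1 and 3.49 in HOM 2, a median of 1.53 in HET (0.839 to 2.70), and 1.49, 0.485, 0.618 and 0.410 CPM in WT clones. It was the only member highest in HOM 2, and both HOM clones were above all HET and WT clones. HOM exceeded WT by 2.09 log2 units (standard error 0.48) with an edgeR adjusted p of 0.19, and by 2.23 without HOM 1. HET exceeded WT by 1.14 (0.38) with an edgeR adjusted p of 0.15, and by 1.70 without WT 1 (edgeR adjusted p of 0.018). SNX5 had 247 CPM in HOM 1 and 279 in HOM 2, a median of 180 in HET and of 110 in WT clones, a host fold change of 1.04 for HOM against WT on the log2 scale (edgeR adjusted p = 0.20).

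SNORD18B, in the ribosomal protein gene RPL4, had 1.99 CPM in HOM 1 and 0.472 in HOM 2, a median of 0.284 in HET (0.161 to 0.410), and 0.153, 0.168, 0.290 and 0.123 CPM in WT clones. Both HOM clones were above all others. HOM exceeded WT by 2.72 log2 units (standard error 0.55) with an edgeR adjusted p of 0.18, by 3.41 without HOM 2 (edgeR adjusted p of 0.021) and by 1.36 without HOM 1.

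SNORA27, in RPL21, showed the same order. It had 2.03 CPM in HOM 1 and 0.657 in HOM 2, a median of 0.402 in HET (0.314 to 0.539), and 0.393, 0.336, 0.348 and 0.266 CPM in WT clones. HOM exceeded WT by 1.99 log2 units (standard error 0.42) with an edgeR adjusted p of 0.18, and by 0.98 without HOM 1. For SNORA1 (which reached the limit only with HOM 1), SNORA8, SNORD5 and SNORD3A the log2 fold changes were 3.01, 2.52, 2.86 and 2.39 with standard errors of 0.62, 0.58, 0.66 and 0.58, each with an edgeR adjusted p between 0.18 and 0.19. Without HOM 1 they were 1.53, 1.24, 0.79 and 0.55.

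Of the other abundant genes, several were highest in HOM 1 with HOM 2 near the WT clones. SNORA48, in the helicase gene EIF4A1, had 3.84 CPM in HOM 1 and 1.29 in HOM 2, 1.17 ± 0.427 in HET and 1.14 ± 0.243 in WT clones. SNORD10, in the same host, had 2.80 and 0.719 CPM in HOM 1 and HOM 2, 1.06 ± 0.387 in HET and 1.02 ± 0.325 in WT clones. Both had HOM 2 within 1 SD of the WT mean, and their log2 fold changes for HOM against WT were 1.17 and 0.78, and 0.19 and -0.49 without HOM 1.

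In SNORA33 both HOM clones were above every WT clone. SNORA33, in RPS12, had 3.21 and 1.03 CPM in HOM 1 and HOM 2, 0.947 ± 0.344 in HET and 0.784 ± 0.154 in WT clones, and its log2 fold change for HOM against WT was 1.43 and 0.40 without HOM 1. None of these 3 genes passed the adjusted threshold in edgeR in any comparison. Of the 5 members of neither class, SCARNA12, in PHB2, was the most abundant, with 4.83 CPM in HOM 1 and 1.99 in HOM 2, a median of 2.02 in HET (1.37 to 2.86), and 3.04, 1.44, 0.502 and 1.23 CPM in WT clones.

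**Figure D5:**
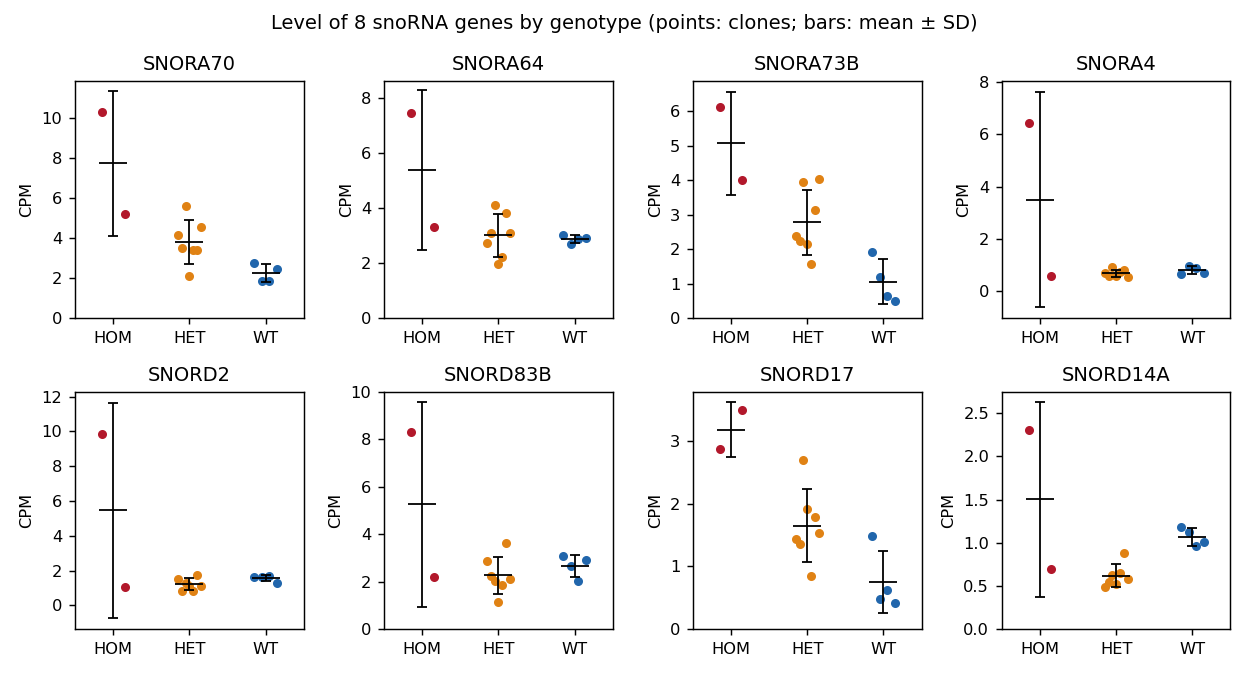
Level in CPM (vertical axes, 1 per gene) of 8 snoRNA genes in each clone by genotype (horizontal axes; HOM, HET, WT), where each point is a clone and each bar shows the mean ± SD (n = 2, 7 and 4). SNORA70, SNORA73B and SNORD17 have both HOM clones above every WT clone, whereas in SNORA4 and SNORD2 HOM 1 (6.42 and 9.85 CPM) is far above a HOM 2 (0.596 and 1.09 CPM) that lies below the WT clones; for SNORD14A no HET clone reaches the WT clones.

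Between HET and WT clones, 26 of 20320 genes passed (0.128%, and 0.0443% higher) and none of them was a snoRNA gene. The log2 fold change was above 0 in 59 of 84 members, against 50.8% of all genes, with medians of 0.27 for H/ACA and 0.12 for C/D genes. With total counts as library sizes, which bring the median of all genes to -0.10, 49 were above 0 and the medians were 0.18 and 0.017. With a clone left out they ran from 0.16 to 0.39 and from 0.046 to 0.256. An unadjusted p under 0.05 was found for 9 members, against 18.5% of all genes: 6 were higher in HET, against 9.73%, and 3 lower, against 8.73%. Those higher were SNORA73B, SNORD17, SNORA70, SNORA8, SNORA1 and SNORA5C, and those lower ENSG00000202343, SNORD14A and SNORA69. Without HOM 1 in the fit, 11 members had such a p, against 17.7% of all genes, and 7 of them were higher, against 8.89%. DESeq2 called SNORA73B and SNORD17, both higher, where 4.98% of all genes were called and 2.67% called higher. Without WT 1, edgeR called SNORA73B and SNORD17 higher and ENSG00000202343 lower, where 7.14% of all genes were called, and without HET 6 it called ENSG00000202343 among 1550 genes.

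No member had all HET clones above all WT clones (1.23% of all genes), and 2 had all of them below (1.38% of all genes). SNORD14A, a copy of U14 in RPS13, had a median of 0.584 CPM in HET clones (0.491 to 0.886), against 1.18, 1.12, 0.965 and 1.00 CPM in WT clones. In HOM 1 it had 2.30 CPM and in HOM 2 0.698, so HOM 2 was beside the HET clones. HET differed from WT by -0.79 log2 units (standard error 0.30), with an edgeR adjusted p of 0.19. SNORD14B, from the same host, had 3.41 CPM in HOM 1 and 1.70 in HOM 2, a median of 1.21 in HET (0.615 to 2.05), and 1.86, 1.77, 1.22 and 1.21 CPM in WT clones, and its HET and WT clones overlapped. SNORD14E, in the chaperone gene HSPA8, had 0.904 CPM in HOM 1 and 0.246 in HOM 2, a median of 0.121 in HET (0.0854 to 0.386), and 0.0874, 0.187, 0.154 and 0.164 CPM in WT clones. RPS13 had a median of 417 CPM in HET (351 to 486) and of 474 CPM in WT clones (442 to 532).

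The other gene with separated groups, ENSG00000202343, had a median of 0.298 CPM in HET clones (0.201 to 0.423), against 0.459, 0.597, 0.637 and 0.819 CPM in WT clones. HET differed from WT by -0.995 log2 units (standard error 0.30), with an edgeR adjusted p of 0.12. Among the remaining C/D genes of lowest p, HET differed from WT in SNORD58C, in RPL17, by -0.69 log2 units (standard error 0.36) and in SNORD12, in the noncoding host ZFAS1, by 1.05 (0.56), with edgeR adjusted p of 0.31 and 0.33. For SNORA70, SNORA8 and SNORA1 the differences were 0.77 (0.28), 1.11 (0.46) and 1.22 (0.52) log2 units, with edgeR adjusted p of 0.17, 0.22 and 0.23.

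Between HOM and HET clones, no gene passed in edgeR (0% called). The log2 fold change was above 0 in 79 of 84 members, against 45.1% of all genes, with medians of 1.12 for H/ACA and 1.34 for C/D genes. An unadjusted p under 0.05 was found for 53 members, all higher in HOM, against 2.8% of all genes in either direction, 1.91% higher and 0.891% lower. Over the 69 genes not dependent on HOM 1 for the limit, 65 were above 0 and 42 had such a p. Without HOM 1 it was found for 0 members, against 0.68% of all genes and 0.263% higher, 46 of 84 were above 0, and the medians were 0.087 and -0.0034. DESeq2 called none of the members and 15 of all genes (0.0738%, and 0.064% higher). Both HOM clones were above all 7 HET clones in 7 members, against 1.22% of all genes: SNORD17, SNORD102, SNORA27, SNORD19, SNORD18B, SNORD125 and SCARNA10. Of these, SCARNA10 reached the limit only with the reads of HOM 1, and the count over the other 69 genes was 6. Without HOM 2 the count called was 9, against 0.163% of all genes: all 5 EIF4A2 members with SNORD20, SNORD21, SNORA27 and SNORD18B. SNORD20 was itself brought over the limit by HOM 1, and 8 were called over the other 69 genes. No host gene passed in edgeR in any of the 3 comparisons. Of all genes, 0.128% passed for HET against WT and 0% for HOM against WT or HET. Of the 56 hosts, 18 had an unadjusted edgeR p under 0.05 for HET against WT, a larger share than the 18.5% of all genes. For HOM against WT it was 16 of the 56 hosts, also a larger share than the 14.4% of all genes. Both counts take either direction.

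The proteins that build and trim snoRNAs were listed beside the RNAs, and none of them passed the adjusted threshold in any comparison. Of the 6 genes of the H/ACA core and its assembly, 5 were above 0 in HOM against WT, with a median log2 fold change of 0.43, and 3 had an unadjusted p under 0.05, all higher, against 49% of all genes above 0 and 7.52% higher at that p. DKC1, the pseudouridine synthase dyskerin, had 345 ± 8.24 CPM in HOM, 307 ± 96.9 in HET and 216 ± 73.4 in WT clones, and GAR1 had 54.3 ± 0.589, 43.0 ± 10.5 and 33.5 ± 12.4 CPM. Of the 4 C/D core genes all were above 0, with a median of 0.63 in HOM and 0.52 in HET. SNU13, which binds the box motifs first, had 134 ± 6.64 CPM in HOM, 123 ± 25.5 in HET and 87.3 ± 18.2 in WT clones. The median over all genes was -0.01 for HOM and 0.01 for HET against WT.

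Of 9 assembly factors, 7 were above 0 in HOM and 8 in HET clones, with medians of 0.34 and 0.33. RUVBL2, an ATPase of the R2TP complex, had 145 ± 30.6 CPM in HOM, 140 ± 27.9 in HET and 89.6 ± 12.5 in WT clones (edgeR adjusted p = 0.22 for HOM and 0.087 for HET against WT). Of 25 genes of debranching, trimming and decay, 20 were above 0 in HOM and 20 in HET clones, with medians of 0.27 and 0.18, and 5 higher and 1 lower had an unadjusted p under 0.05 in each. Of all genes, 49% were above 0 in HOM and 50.8% in HET clones, 7.52% and 9.73% were higher at that p, and 6.84% and 8.73% lower. The helicase MTREX, the exosome subunit EXOSC3 and the nuclease XRN2 had edgeR log2 differences of 0.53, 0.61 and 0.44 in HOM and of 0.51, 0.49 and 0.34 in HET clones against WT. ZCCHC8, a partner of that helicase in the nuclear exosome targeting complex, had -0.37 in HOM and -0.28 in HET clones. In HOM 1 the same genes had ratios of 1.03, 1.19, 1.15 and 0.947 to the median of the other 12 clones. The highest such ratio among all the proteins listed was 1.54, for NOP56, while the snoRNA genes had medians of 3.63 (H/ACA) and 4.11 (C/D). Over the 30 H/ACA and 36 C/D genes that reach the limit without HOM 1, the medians were 3.34 and 3.75.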

How the data were processed

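RNA of 13 clones of 293T cells was sequenced from TruSeq Stranded mRNA libraries, a poly(A)-selecting kit, per the labels' protocols. The authors deposited raw counts per gene. Per the submitters' processing notes, Trimmomatic 0.36, STAR and featureCounts 1.5.3 were used with hg19. The annotation, strand setting and treatment of reads with several alignments were not given in the sources used here.

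Clones were grouped by the genotype label (HOM, HET, WT) and numbered within groups only to name them. The labels name no batch. Each count was divided by the TMM-scaled library size to give CPM. Gene types, hosts and transcript sequences came from GENCODE release 29, which describes another build than hg19, so no coordinates are printed. It gave a type for 51204 of 56238 rows.

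All 13 libraries entered 1 fit in edgeR 4.0.16 (R 4.3.3) with filterByExpr, robust quasi-likelihood F tests, 3 contrasts and Benjamini-Hochberg adjustment over 20320 genes. The median biological coefficient of variation of the snoRNA genes was 45.4%, and 10 reads alone carry a counting error of 31.6%. Alternatives were DESeq2 1.42.0, RLE factors, total counts as library sizes, no filter, fits to the groups compared, non-robust estimation and leaving out each clone. The edgeR fit was tried on simulated counts with known changes in HET clones only, scored for HET against WT. The comparisons with HOM clones were not tried this way.

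The snoRNA genes and the lists were chosen with earlier results of these data known. Members named were the 8 SNORA and 8 SNORD genes of highest summed count, the 4 of each class with the lowest p in HET against WT and in HOM against WT, and SNORA70, SNORA73B, SNORD3A and the SNORD14 family. SNORA73A, SNORD118, SNORD13, SNORD115 and SNORD116 are not members. A pair of the genes under this rule is not described in the report. Proteins named were up to 4 per list by lowest p. Other snoRNA genes named in the text were chosen after their values were seen. ZNHIT3, LHX1, NEFL, PECAM1, RPPH1, RN7SK, RN7SL1 and RN7SL2 were not analysed here. In the main fit a p-value sets the difference between groups against the spread between clones, estimated over HOM, HET and WT clones together.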

Additional observations from a re-analysis of the deposited data

Results flagged for a closer look

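In 4 of the 66 groups examined, 1 clone stood apart from its own group by Dixon's criterion for the gap to the nearest clone, and chance flags about 1 group in 20. SNORD14A reached 0.886 CPM in HET 6, against 0.653 CPM in the next HET clone and 0.491 in the lowest. SNORD3A reached 1.28 CPM in HET 1, against 0.786 in the next HET clone. SNORD2 was lowest in WT 4 at 1.29 CPM, against 1.64 in the next WT clone and 1.68 in the highest. The replication-dependent histone genes summed to 213 CPM in HET 6, against 107 in the next HET clone and 47.5 in the lowest. HET 6 was also the HET clone with the highest summed level of the snoRNA genes, 68.8 CPM. Groups of 2 clones cannot be examined this way, so the gap between HOM 1 and HOM 2 is given in the report as values.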

How the results depend on the processing

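No paired analysis was possible because the replicate numbers only name the clones. Of 645 alternative values of the 34 named fold changes, 608 kept direction and side of the threshold and 28 newly passed it, and 9 reversed, all without HOM 1 in HOM against WT: SNORA81 -0.91, SNORA4 -0.44, SNORA68 -0.17, SNORD83B -0.27, SNORD2 -0.51, SNORD83A -0.68, SNORD10 -0.49, SNORD14A -0.60 and SNORD58C -0.41, where only HOM 2 is left, and the same 9 were 2.72, 2.96, 1.51, 1.63, 2.64, 1.47, 1.45, 1.10 and 1.15 without HOM 2; a lone clone is assumed to vary like the other groups. Genes called in HET against WT were 1012 by DESeq2, 66 with total counts as library sizes, 90 without a filter, 0 with only the groups compared and 0 to 1550 with a clone left out. Members called there were 2 by DESeq2 and 0 to 3 with a clone left out. In HOM against WT the genes called were 348 by DESeq2, 1 with total counts and 0 to 246 with a clone left out, and members 12 and 0 to 12. In HOM against HET the genes called were 15, 1 and 0 to 35, and members 0 to 9 with a clone left out. With a clone left out, medians ran from 0.21 to 2.14 (H/ACA) and 0.14 to 2.17 (C/D) for HOM against WT, from 0.087 to 1.73 and -0.0034 to 2.00 for HOM against HET, and from 0.16 to 0.39 and 0.05 to 0.26 for HET against WT. Total counts as library sizes brought the median of all genes to -0.10 in both comparisons with WT. The causes of these shifts in counts were not tested. At the limit of 130 reads a gene averages 10 a clone, so small differences could be missed. The smallest difference that these fits could detect was not computed.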
